A study of Mus musculus with 19 samples.

Results

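Notch signalling was described here through 10 genes out of 51707 genes in the summed tables: the receptors Notch1, Notch2, Notch3 and Notch4, the ligands Jag1, Jag2, Dll1 and Dll4, and the target genes Hes1 and Hey1. The genes were taken by name as a list of pathway members, and all 10 were found. RNA had been sequenced from cells that were sorted from mouse pancreatic ductal adenocarcinomas. The tumours came from T-LOH KPC organoids, cultured pancreatic tumour cells, which were transplanted orthotopically into C57BL/6J mice, and the animals then received neratinib, an irreversible inhibitor of ERBB receptor tyrosine kinases, or vehicle for 2 weeks. The libraries fall into 4 groups: PDPN+ cells (called cancer-associated fibroblasts, CAFs, by the labels) under vehicle, n = 4, and under neratinib, n = 4, and EpCAM+ cells (called epithelial) under vehicle, n = 6, and under neratinib, n = 5. All groups share the host strain and the organoid type, the labels give no age, and they do not say how many organoid lines were used or whether tumours were pooled.

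Each label carries a 5-digit number, here inferred to name the mouse. There are 11 such numbers: both populations share 8, the other 3 belong to EpCAM+ libraries, and 0 appear under both treatments. Libraries are named by treatment letter and mouse number, so that V53175 is vehicle and N53178 is neratinib. Depth, counted as reads on genes, was 30.3 to 48.1 M (mega) in PDPN+ and 39.4 to 75.4 M in EpCAM+ libraries. The sorting markers matched the labels. Pdpn ran from 200 to 418 TPM (transcripts-per-million, a level scaled for transcript length and depth) in PDPN+ and from 0.349 to 2.52 TPM in EpCAM+ libraries, and Epcam from 0 to 0.54 TPM in PDPN+ and from 114 to 897 TPM in EpCAM+ libraries. The summed level of 10 fibroblast markers was 5266 to 8440 TPM in PDPN+ and 9.03 to 82.5 TPM in EpCAM+ libraries, and that of 10 epithelial markers was 275 to 1266 TPM and 18416 to 25284 TPM. Of the 5 libraries that stand apart, the PDPN+ vehicle libraries V53175 and V53188 were lowest in the number of genes reaching 10 reads (12102 and 11924, against 13691 to 18602 in the other 6), and the EpCAM+ libraries V53175, V53176 and N53178 lay at 64.9 to 70.5 on the first principal component of EpCAM+ expression (51.9% of the variance), against -35.7 to -10.1 in the other 8. On the first principal component of PDPN+ expression (23.6% of the variance), V53175 lay at 163 and V53188 at 22.6. The other 6 PDPN+ libraries lay at -64.2 to -13.1, so V53188 was closer to them than to V53175. Where leaving the 5 libraries out ends a call, the value without them is given beside it.

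Notch receptors are single-pass membrane proteins that bind Delta-like and Jagged ligands on a neighbouring cell. Binding allows ADAM proteases and then the gamma-secretase complex to cut the receptor, and the released intracellular domain enters the nucleus, joins the DNA-binding protein RBPJ and switches on genes of the Hes and Hey families. In pancreatic tissue the pathway is known for holding progenitor and ductal states against acinar differentiation, and in vessels Notch4 and Dll4 are typical endothelial genes and Notch3 is typical of mural cells.

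Of the 10 members, the ligands Dll1, Dll4 and Jag2 differed most between the sorted populations, and Jag1 is the ligand found in both, so the DNA just upstream of the start is shown for those of the 4 with such sequence outside the exons of their own gene. The RefSeq promoter table of build GRCm38.p6 matched 8 of the 10 members, Hes1 and Hey1 being the other 2. Positions are given in that build, while the submitters' processing notes name GRCm39, and no gene coordinate was used in the measurements. Each line runs 5′ to 3′ on the gene's strand, and capitals mark the GC box letters GGGCGG (searched on both strands), the core of a Sp-family site:

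Dll1 (chr17:15376933-15377182, minus strand): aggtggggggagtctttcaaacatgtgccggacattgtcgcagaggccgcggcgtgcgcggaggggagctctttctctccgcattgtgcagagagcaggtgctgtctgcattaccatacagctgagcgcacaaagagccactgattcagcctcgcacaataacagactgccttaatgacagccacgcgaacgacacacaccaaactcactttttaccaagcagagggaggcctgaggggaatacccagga
Dll4 (chr2:119325534-119325783, plus strand): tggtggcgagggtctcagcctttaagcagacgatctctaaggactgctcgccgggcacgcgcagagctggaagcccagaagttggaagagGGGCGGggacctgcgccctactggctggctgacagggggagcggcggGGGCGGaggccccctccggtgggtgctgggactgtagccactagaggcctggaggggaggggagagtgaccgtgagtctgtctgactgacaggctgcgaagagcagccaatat
Jag1 (chr2:137116645-137116770, minus strand): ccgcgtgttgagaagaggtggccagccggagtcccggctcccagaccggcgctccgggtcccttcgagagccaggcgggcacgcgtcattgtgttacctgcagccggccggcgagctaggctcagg

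The Dll4 window held 2 GC boxes and the Dll1 and Jag1 stretches held 0, while 32.7% of all 32851 windows of 250 bases in the table held at least 1. The 250 upstream bases of Jag2, which are not printed, held 5. The RBPJ core letters TGGGAA, searched on both strands, were in none of the 8 members' 250-base windows and in 21.6% of all windows. These are matches of letters in short windows and no measure of binding.

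In EpCAM+ cells the ligands were present as a group of 4, and in PDPN+ cells Jag1 was nearly the only one. The summed TPM of the 4 ligands was 13.6 to 63 (median 41.1) in EpCAM+ libraries and 1.5 to 6.48 (median 2.77) in PDPN+ libraries, ranges that do not overlap. Jag1 was the most abundant ligand in 7 of 8 PDPN+ libraries, with 94.1 to 100% of the ligand TPM there, and Jag2 in the remaining library, V53188. In EpCAM+ libraries Jag1 led in 8 of 11 and Dll1 in the other 3. The neighbours Jag1 and Dll1 thus overlapped in order, as did Jag2 and Dll4, of which Jag2 was the higher in 7 of 11 libraries, whereas Dll1 lay above Jag2 in 11 of 11.

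**Figure D1:**
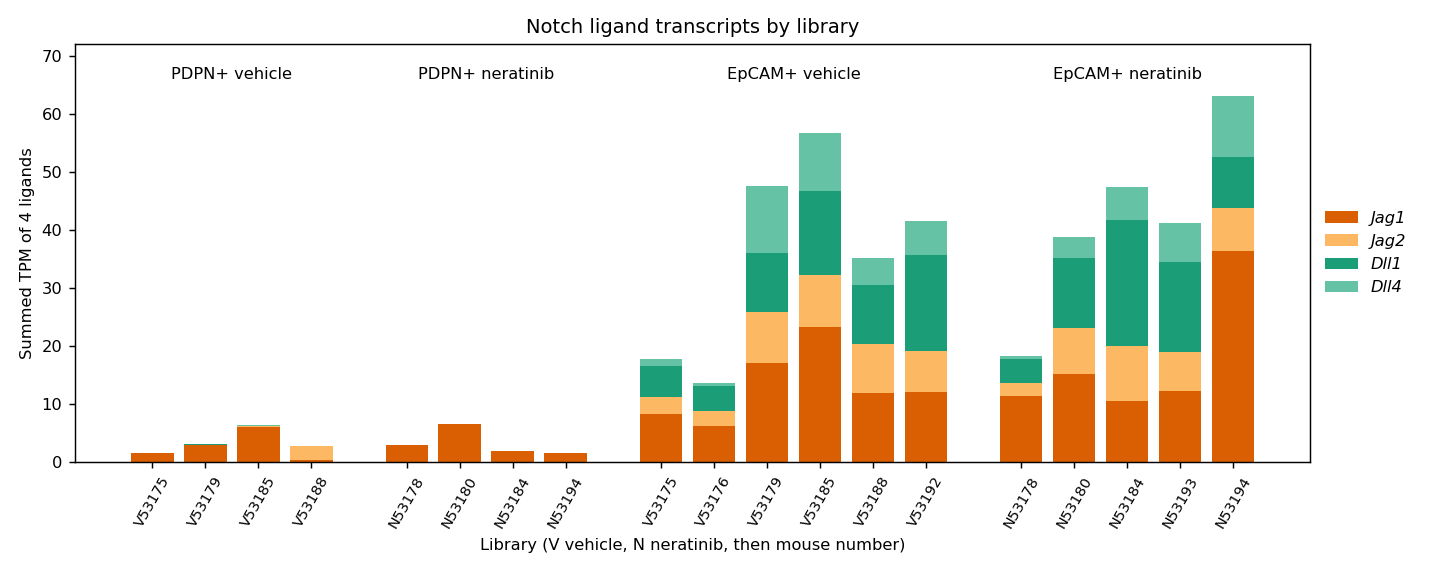
Stacked bars show the TPM of Jag1, Jag2, Dll1 and Dll4 in each of the 19 libraries, from 0 on a linear axis, by population and treatment. PDPN+ libraries sum to 1.5 to 6.48 TPM, almost all of it Jag1 except in V53188, and EpCAM+ libraries sum to 13.6 to 63 TPM, with V53175, V53176 and N53178 the lowest of the EpCAM+ libraries.

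To examine how the pathway genes differed between CAFs and tumour epithelium, the PDPN+ groups were compared with the EpCAM+ groups in one fit of all 19 libraries (edgeR quasi-likelihood F-test, Benjamini-Hochberg adjusted over all 19626 genes tested, threshold 0.05). Of the 10 members, 6 were lower in PDPN+ cells (Notch1, Notch2, Jag1, Jag2, Dll1 and Dll4), 2 were higher (Hes1 and Hey1) and 2 did not pass (Notch3 and Notch4). These counts stand against a background of 49.3% of all genes called in either direction, 25.0% lower and 24.3% higher. The median log2 difference was -1.38 over the members and -0.13 over all genes tested. On the log2(TPM + 1) scale, over the 14565 genes with a mean TPM of at least 1, the median was -0.64. It was also -0.64 in the fit with the mouse as a block and -0.52 under limma voom with sample weights. Small differences below should be read against the shift of their setting. Other measures moved with the populations. Of 5 mesothelial markers 4 were higher in every PDPN+ than in every EpCAM+ library, among them Upk3b (91.3 to 341 against 0.0352 to 5.71 TPM) and Wt1 (44.1 to 111 against 0.0249 to 0.51 TPM), while Msln had a median of 318 TPM in PDPN+ and 659 TPM in EpCAM+ libraries. The mitochondrial share of reads was 6.14 to 19.4% in PDPN+ and 2.15 to 2.89% in EpCAM+ libraries. The part of these in the members' differences was not tested. In bulk samples such as these, fewer cells that carry a transcript and less of it per cell cannot be told apart. The edgeR fit that keeps only the 8 mice with both populations takes the mouse as a block. It called 4 of the 10 members, the 4 ligands, beside 7251 of 19078 genes tested. The vehicle libraries alone gave 3 (Jag1, Dll1 and Dll4), beside 5421 of 17601 genes. The neratinib libraries alone gave 4 (the 4 ligands), beside 5838 of 16858 genes. As shares of the 10 members, these counts are close to the shares of all genes called.

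Dll1, a Delta-like ligand (ENSMUSG00000014773, GRCm38 17:15367354-15376872, minus strand), showed the smallest p of the members. In PDPN+ cells it stood at 0.00, 0.08, 0.04 and 0.01 TPM in vehicle libraries V53175, V53179, V53185 and V53188 and at 0.00, 0.06, 0.00 and 0.04 TPM in neratinib libraries N53178, N53180, N53184 and N53194, a total of 14 reads in 8 libraries. The EpCAM+ vehicle range went from 4.19 to 16.5 TPM (median 10.1), and in the EpCAM+ neratinib libraries N53178, N53180, N53184, N53193 and N53194 it stood at 4.04, 11.99, 21.64, 15.62 and 8.79 TPM. Every EpCAM+ library lay far above every PDPN+ library, and the lowest EpCAM+ values were those of V53176, N53178 and V53175. The log2 difference (PDPN+ minus EpCAM+) came to -8.94 (SE 0.79, edgeR adjusted p = 3.31e-08). Without mouse N53194 it was -9.90, and the call held in all 21 alternatives.

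Dll4, a Delta-like ligand best known from vessel sprouts (ENSMUSG00000027314, GRCm38 2:119325784-119335962, plus strand), followed the same order. Its PDPN+ vehicle values were 0.00, 0.04, 0.19 and 0.00 TPM, and its PDPN+ neratinib values 0.00, 0.01, 0.00 and 0.00 TPM, with 27 of the 33 PDPN+ reads in V53185. Under vehicle, EpCAM+ libraries ran from 0.638 to 11.6 TPM (median 5.3), and the EpCAM+ neratinib libraries held 0.58, 3.72, 5.74, 6.62 and 10.52 TPM. The populations did not overlap, which was true of Dll1 and Dll4 among the 10 members and of 16.6% of all genes tested in that direction. PDPN+ minus EpCAM+, the log2 difference was -8.35 (SE 1.12, edgeR adjusted p = 5.93e-06), with -9.39 without mouse N53180 and -9.23 without mouse V53185. The summed level of 12 blood endothelial markers, which include the vessel genes Kdr and Plvap, was 21.4 to 111 TPM in PDPN+ and 9.25 to 25 TPM in EpCAM+ libraries, with Esam and Kdr leading in PDPN+ and Flt1 and Sox17 in EpCAM+ cells. Single markers of the list went both ways. Kdr had a median of 11 TPM in PDPN+ and 0.138 TPM in EpCAM+ libraries, Flt1 1.04 and 4.62 TPM and Cdh5 0 and 0.967 TPM, while Sox17 was at 0 in all 8 PDPN+ libraries and at 0.772 to 12.6 TPM in EpCAM+ libraries. The part of endothelial cells in Dll4 was not tested.

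Jag2, a Jagged ligand (ENSMUSG00000002799, GRCm38 12:112907819-112929776, minus strand), was nearly confined to EpCAM+ libraries apart from 1 PDPN+ library. PDPN+ vehicle libraries held 0.00, 0.06, 0.07 and 2.41 TPM, the last being V53188 with 351 of the 373 PDPN+ reads, and all 4 PDPN+ neratinib libraries held 0 reads. In EpCAM+ vehicle libraries it ran from 2.6 to 8.86 TPM (median 7.73), and the EpCAM+ neratinib libraries held 2.29, 7.95, 9.45, 6.62 and 7.36 TPM. The level in V53188 reached above the lowest EpCAM+ library, N53178. This gave a log2 difference of -7.39 (SE 1.27, edgeR adjusted p = 0.000163). It was -9.56 without mouse V53188 and -2.19 (edgeR adjusted p = 0.28) among vehicle libraries alone. Taking 3 reads in N53178, the PDPN+ neratinib library of least depth, as the floor (0.0989 CPM, counts-per-million), the mean of EpCAM+ neratinib libraries was at least 166-fold higher. Floors of this kind allow for counting error but not for duplication by PCR, and the labels name no molecular identifiers. The 10 epithelial markers summed to 301 TPM in PDPN+ V53188, against 275 to 1266 TPM over the 8 PDPN+ libraries. In PDPN+ cells that sum was led by Krt19, Krt8 and Krt18. The part of epithelial cells in the Jag2 of V53188 was not tested.

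Jag1, the other Jagged ligand (ENSMUSG00000027276, GRCm38 2:137081456-137116644, minus strand), was measured in every library of both populations. It stood at 1.56, 2.87, 6.05 and 0.30 TPM in PDPN+ vehicle and 2.81, 6.41, 1.83 and 1.46 TPM in PDPN+ neratinib libraries. The EpCAM+ vehicle range went from 6.18 to 23.3 TPM (median 11.9), and the EpCAM+ neratinib libraries held 11.34, 15.15, 10.53, 12.25 and 36.38 TPM. The populations met at their edges, where PDPN+ N53180 lay just above EpCAM+ V53176. The log2 difference was -1.93 (SE 0.45, edgeR adjusted p = 0.00155), a 3.81-fold lower level in PDPN+ cells, and it passed in all 21 alternatives.

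Notch2 was the leading receptor in PDPN+ cells, and Notch2 and Notch1 were the leading receptors in EpCAM+ cells. The 4 receptors summed to 1.7 to 6.26 TPM (median 3.37) in PDPN+ and 3.92 to 11.6 TPM (median 8.32) in EpCAM+ libraries. Notch2 was the highest receptor in 6 of 8 PDPN+ libraries and in 6 of 11 EpCAM+ libraries, and Notch1 led in the other 5 EpCAM+ libraries, so those neighbours do not differ beyond their spread in EpCAM+ cells. Both lay above Notch3 and Notch4 in 11 of 11 EpCAM+ libraries. In PDPN+ cells Notch1 and Notch3 each led in 1 library, and Notch1 was above Notch3 in 4 of 8 and below it in 4 of 8, so those neighbours do not differ beyond their spread there.

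Notch1 (ENSMUSG00000026923, GRCm38 2:26457903-26516663, minus strand) stood at 0.59, 1.13, 1.44 and 0.00 TPM in PDPN+ vehicle and 0.85, 2.89, 0.00 and 0.06 TPM in PDPN+ neratinib libraries. Under vehicle, EpCAM+ libraries ran from 1.26 to 4.19 TPM (median 3.73), and the EpCAM+ neratinib libraries held 1.04, 6.37, 3.98, 4.74 and 5.40 TPM. The ranges overlapped through PDPN+ N53180, V53185 and V53179 and the 3 EpCAM+ libraries that stand apart. Coding transcripts held 70.8%, 85.8% and 71.4% of Notch1 reads in PDPN+ N53180, V53185 and V53179, and the level in V53179 came from 42 reads. TPM weighs short transcripts more, so part of these 3 PDPN+ levels lies on short noncoding transcripts. PDPN+ minus EpCAM+, the log2 difference was -2.24 (SE 0.89, edgeR adjusted p = 0.0444). The call was lost without mouse V53179, V53185, V53188, V53192, N53193 or N53194 (edgeR adjusted p from 0.0564 to 0.0933), without the 5 libraries that stand apart (-2.63, adjusted p = 0.0529), with transcript length offsets (-1.67, adjusted p = 0.127), and with the mouse as a block (-3.67, adjusted p = 0.0942). Without mouse N53180 the value was -2.85.

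Notch2 (ENSMUSG00000027878, GRCm38 3:98013527-98150361, plus strand) varied least among the receptors, with an SD of log2 CPM of 0.65 over the 19 libraries against 2.05 to 3.07 for the other 3. It stood at 0.91, 2.67, 2.75 and 4.87 TPM in PDPN+ vehicle and 0.71, 0.80, 1.60 and 1.9 TPM in PDPN+ neratinib libraries. In EpCAM+ vehicle libraries it ran from 2.15 to 5.57 TPM (median 3.36), and the EpCAM+ neratinib libraries held 3.61, 3.97, 2.96, 4.07 and 5.54 TPM. V53188 was the one PDPN+ library that lay among the upper EpCAM+ values. In it the coding transcript held 77.4% of Notch2 reads, against at least 97.1% in the other PDPN+ libraries. The rest lay on a retained intron transcript, and by TPM the lowest coding share in PDPN+ libraries was 35.2%. The log2 difference of Notch2 was -0.75 (SE 0.28, edgeR adjusted p = 0.0327). It no longer passed without mouse V53179, N53180 or V53185 (edgeR adjusted p from 0.0512 to 0.0621), with transcript length offsets (-0.53, adjusted p = 0.188), under limma voom with sample weights (-0.74, adjusted p = 0.119) or with the mouse as a block (-0.90, adjusted p = 0.0871).

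Notch3 (ENSMUSG00000038146, GRCm38 17:32120820-32166852, minus strand) was uneven in PDPN+ cells, at 0.70, 0.07, 1.39 and 0.70 TPM in vehicle and 1.10, 0.01, 0.09 and 0.00 TPM in neratinib libraries. The EpCAM+ vehicle range went from 0.0754 to 0.76 TPM (median 0.45), and the EpCAM+ neratinib libraries held 0.14, 0.69, 0.47, 0.68 and 0.43 TPM. The PDPN+ values lay on both sides of the EpCAM+ range. The log2 difference of 0.70 (SE 0.84, edgeR adjusted p = 0.516) had an approximate 95% interval of -0.95 to 2.35 and turned to -1.06 without mouse N53178. The summed level of 8 pericyte and smooth muscle markers was 35.9 to 110 TPM in PDPN+ and 2.97 to 14.6 TPM in EpCAM+ libraries, and their part in Notch3 was not tested.

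Notch4 (ENSMUSG00000015468, GRCm38 17:34564268-34588503, plus strand) was below Notch3 in 6 of 8 PDPN+ and 9 of 11 EpCAM+ libraries. It stood at 0.00, 0.00, 0.67 and 0.02 TPM in PDPN+ vehicle and 0.20, 0.40, 0.00 and 0.01 TPM in PDPN+ neratinib libraries, with 5 of 8 libraries at 3 reads or fewer. The 0.40 TPM of N53180 came from 4 reads, with 0% of them on coding transcripts. Under vehicle, EpCAM+ libraries ran from 0.204 to 0.422 TPM (median 0.347), and the EpCAM+ neratinib libraries held 0.13, 0.19, 0.17, 0.24 and 0.19 TPM from 17 to 68 reads per EpCAM+ library. PDPN+ V53185 was above every EpCAM+ library, and the 5 PDPN+ libraries with 3 reads or fewer were below every one. The log2 difference was -0.83 (SE 0.91, edgeR adjusted p = 0.474), with an approximate 95% interval of -2.61 to 0.95. It was -2.52 without mouse V53185 (edgeR adjusted p = 0.0388). The 12 blood endothelial markers summed to 45 TPM in PDPN+ V53185, inside the range of the other PDPN+ libraries. Over the PDPN+ libraries that sum had a median of 52.7 TPM and was led by Esam and Kdr, with medians of 31.8 and 11 TPM. The part of endothelial cells in Notch4 was not tested.

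Hes1, a transcriptional repressor and a widely used readout of Notch activity (ENSMUSG00000022528, GRCm38 16:30064384-30067796, plus strand), was the more abundant target in every library and, unlike the ligands, was higher in PDPN+ cells. It stood at 22.56, 15.67, 37.99 and 18.74 TPM in PDPN+ vehicle and 21.55, 40.47, 20.28 and 9.77 TPM in PDPN+ neratinib libraries. In EpCAM+ vehicle libraries it ran from 13.8 to 22.8 TPM (median 15.6), and the EpCAM+ neratinib libraries held 20.96, 12.96, 12.97, 17.81 and 9.29 TPM. The ranges overlapped widely, with PDPN+ N53180 and V53185 above all other libraries. PDPN+ minus EpCAM+, the log2 difference was 1.03 (SE 0.29, edgeR adjusted p = 0.00688), a 2.04-fold higher level in PDPN+ cells. On log2(TPM + 1) with limma it was 0.45 (adjusted p = 0.126), and with the mouse as a block 1.04 (edgeR adjusted p = 0.0601).

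Hey1, a related repressor induced by Notch in vessels and mesenchyme (ENSMUSG00000040289, GRCm38 3:8663359-8667256, minus strand), rested on a few PDPN+ libraries. It stood at 0.00, 0.02, 2.14 and 3.99 TPM in PDPN+ vehicle and 0.34, 0.00, 1.03 and 0.03 TPM in PDPN+ neratinib libraries, with 4 of 8 at 3 reads or fewer. The EpCAM+ vehicle range went from 0 to 0.281 TPM (median 0.166), and the EpCAM+ neratinib libraries held 0.02, 0.05, 0.17, 0.19 and 0.24 TPM. V53188, V53185, N53184 and N53178 lay above every EpCAM+ library and the other 4 PDPN+ libraries lay within the EpCAM+ range. The log2 difference of 2.94 (SE 1.09, edgeR adjusted p = 0.0319) was lost without mouse N53178, N53184, V53185, V53188 or V53192 (edgeR adjusted p from 0.052 to 0.14), without the 5 libraries that stand apart (2.22, adjusted p = 0.101), under limma voom with sample weights (0.39, adjusted p = 0.808), and with the mouse as a block (0.81, adjusted p = 0.774).

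**Figure D2:**
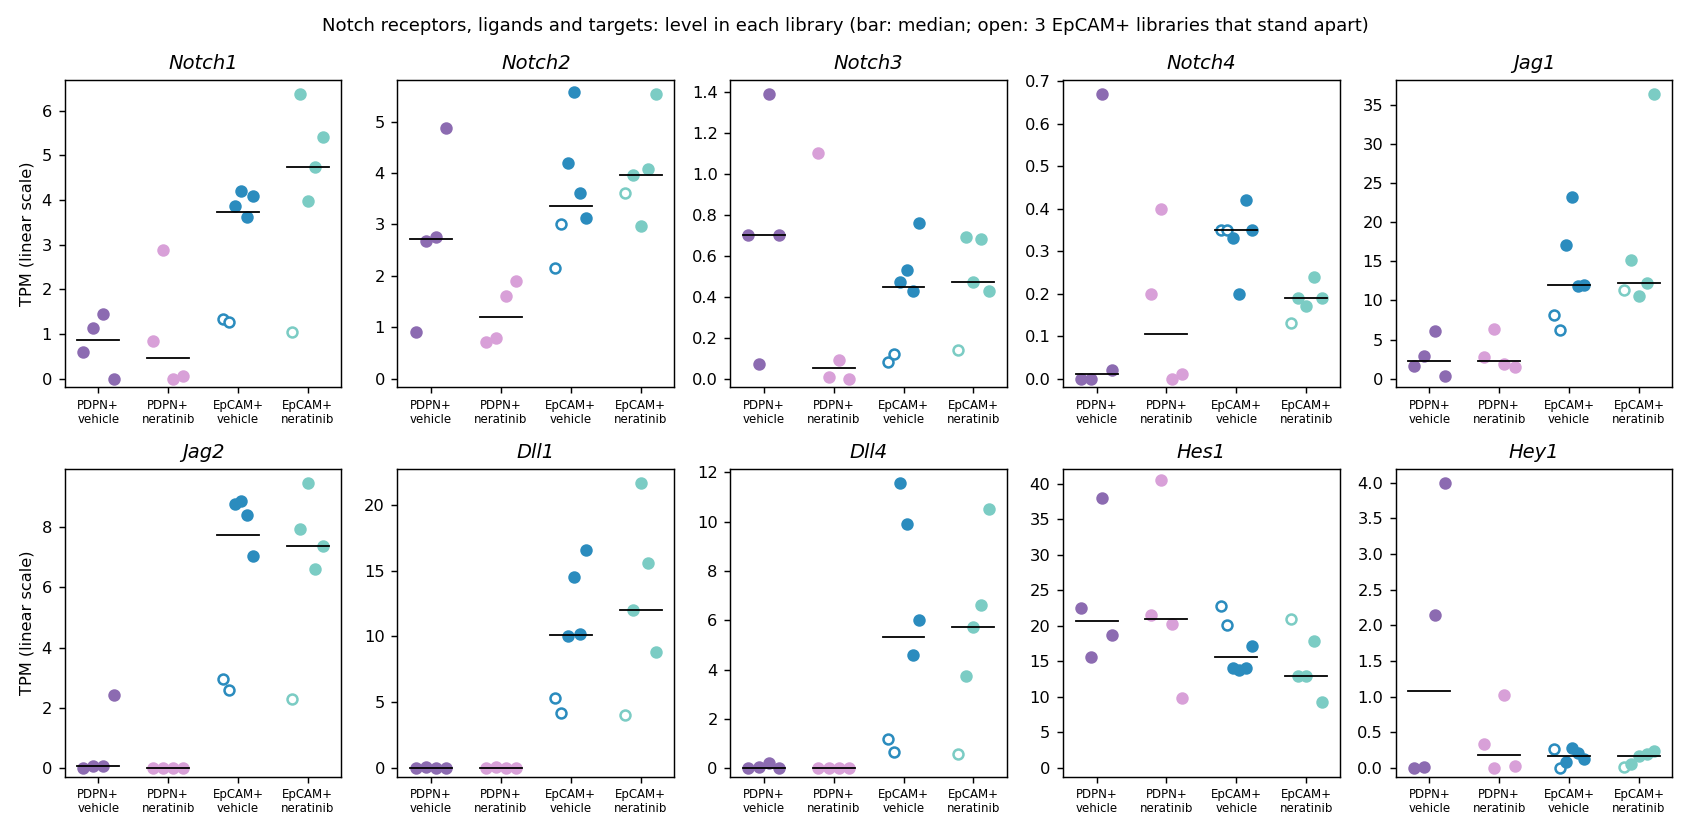
Each panel shows 1 gene, with 1 point per library, a bar at the group median and TPM on a linear axis that differs between panels; open points are EpCAM+ V53175, V53176 and N53178. Dll1 and Dll4 are at or near 0 in all PDPN+ libraries, Hes1 is present in all 19 libraries, and Hey1 is above 1 TPM in PDPN+ V53185, V53188 and N53184 only.

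**Figure D3:**
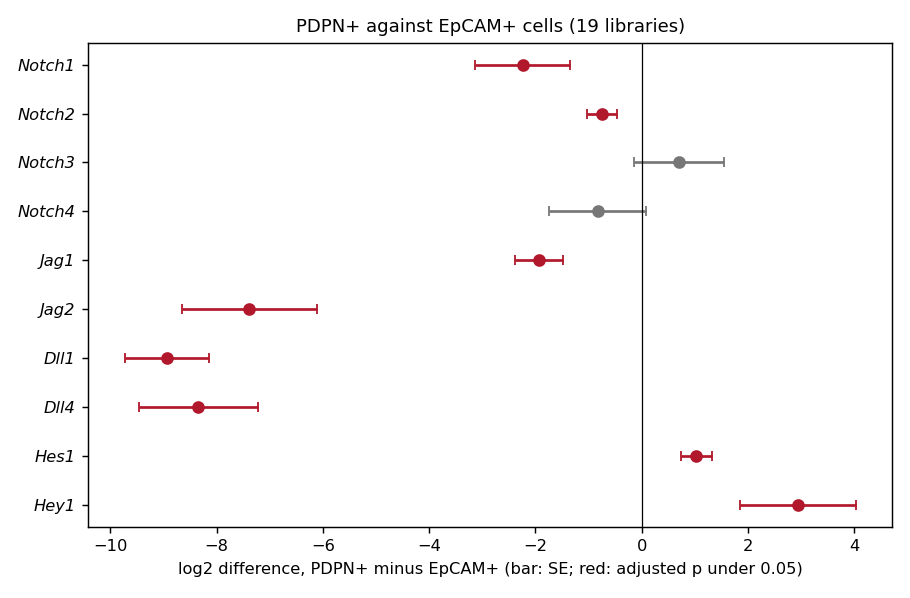
Points are log2 differences, PDPN+ minus EpCAM+, from the edgeR fit of 19 libraries, with SE bars; red points have an adjusted p under 0.05. Jag2, Dll1 and Dll4 lie between -8.94 and -7.39, and Hes1 and Hey1 are the red points to the right of 0.

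Within mice the order was the same for some members. In the 8 mice that gave both populations, Notch1, Jag1, Jag2, Dll1 and Dll4 were each higher in TPM in the EpCAM+ library of 8 of 8 mice, as were 25.6% of all genes tested. Notch2 was higher in EpCAM+ cells in 7 of 8 mice and Hes1 lower in 7 of 8. Notch3 and Hey1 were split 4 and 4, and Notch4 was higher in EpCAM+ cells in 5 of 8. These counts reuse the libraries of the comparison above and are a description of them.

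Other genes of the pathway were read from 7 lists of 44 genes, of which 39 were tested. In PDPN+ against EpCAM+ cells 6 of the 39 were higher, 14 lower and 19 did not pass, with a median log2 difference of -0.12 beside -0.13 for all genes. The share called is close to the background of 49.3%.

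**Figure D4:**
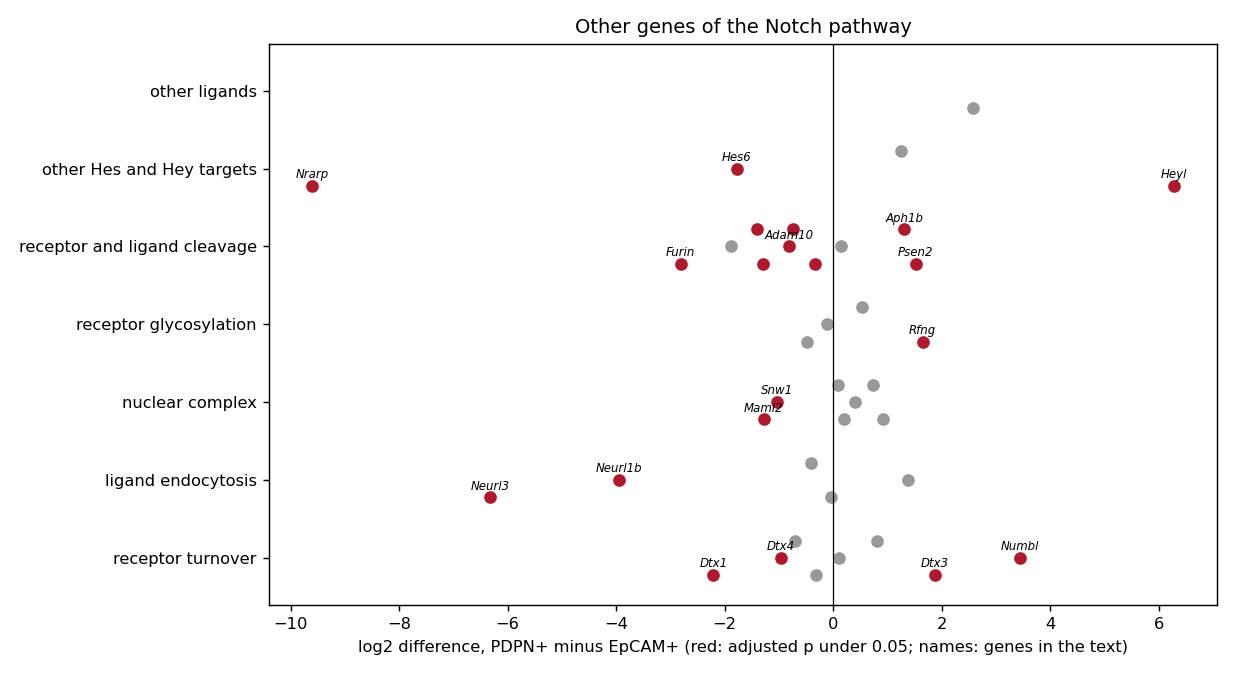
Each point is 1 of the 39 tested pathway genes, placed by its log2 difference, PDPN+ minus EpCAM+, in the row of its list; red points have an adjusted p under 0.05, and those described in the text carry names. Nrarp, Neurl3 and Neurl1b lie farthest to the left, and Heyl and Numbl farthest to the right.

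In the list of other Hes, Hey and target genes, 1 of the 4 tested was higher in PDPN+ cells and 2 were lower. Heyl, a Hey-family repressor, ran from 0 to 10.3 TPM (median 0.973) in PDPN+ and from 0 to 0.14 TPM in EpCAM+ libraries, with a log2 difference of 6.29 (SE 1.34, edgeR adjusted p = 0.000708) that was 5.16 without mouse N53180. Nrarp, a Notch-induced feedback inhibitor, had 0 reads in all 8 PDPN+ libraries and 0.102 to 2.95 TPM in EpCAM+ libraries, whose mean was at least 23-fold higher than the floor of 3 reads in the shallowest PDPN+ library (edgeR adjusted p = 6.56e-06). Hes6, which opposes Hes1, had a median of 57.5 TPM in EpCAM+ and 6.95 TPM in PDPN+ libraries, a log2 difference of -1.78 (SE 0.46, edgeR adjusted p = 0.00357). Its value was -2.59 without mouse N53194 and -1.47 (adjusted p = 0.0634) without the 5 libraries that stand apart, and it did not pass among neratinib libraries alone (-1.76, adjusted p = 0.121). Hes1, Hey1 and Heyl were thus called higher in PDPN+ cells and Nrarp lower, so target genes were called in both directions. Hes6 was listed by its family and is not counted here as a target. The calls of Hes1, Hey1 and Hes6 carry the limits given with each. That of Hey1 passed in 9 of 20 alternatives.

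Of the 19 tested genes for ligand endocytosis, cleavage and glycosylation, 8 were lower in PDPN+ cells and 3 higher, beside 25.0% and 24.3% of all genes. Neurl3 and Neurl1b, ubiquitin ligases of the Neuralized family, were 2 of 5 tested ligand endocytosis genes, and both fell, with log2 differences of -6.32 (SE 0.98, edgeR adjusted p = 3.17e-05) and -3.95 (SE 1.12, edgeR adjusted p = 0.00674). Without mouse N53184 Neurl3 was at -8.43, and Neurl1b was at -7.47 without mouse V53185 and -5.09 without mouse N53194. Of 10 cleavage genes, 6 were lower and 2 higher. Furin, the protease that cuts the receptor on its way to the surface, had a median of 50.9 TPM in EpCAM+ and 4.28 TPM in PDPN+ libraries, a log2 difference of -2.81 (SE 0.48, edgeR adjusted p = 9.42e-05). Psen2, which encodes a presenilin of the gamma-secretase complex, was higher in PDPN+ cells by 1.52 (SE 0.26, edgeR adjusted p = 7.84e-05). Adam10, the receptor-cutting ADAM protease, was at -0.81 (SE 0.19, edgeR adjusted p = 0.00162), and did not pass under limma voom with sample weights (adjusted p = 0.104), nor did Furin (-2.99, adjusted p = 0.0788). Aph1b, another gamma-secretase subunit, was at 1.31 (SE 0.42, edgeR adjusted p = 0.0144), but 0.89 (adjusted p = 0.083) without mouse V53188, 1.10 (adjusted p = 0.0615) without mouse N53184, 0.61 (adjusted p = 0.108) on log2(TPM + 1) with limma and 0.97 (adjusted p = 0.245) with the mouse as a block. Among vehicle libraries alone Neurl1b (-2.85, edgeR adjusted p = 0.227) and Aph1b (1.05, edgeR adjusted p = 0.275) did not pass, and among neratinib libraries alone Adam10 (-0.74, edgeR adjusted p = 0.123) and Psen2 (1.25, edgeR adjusted p = 0.0539) did not.

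Rbpj itself, the DNA-binding partner of the receptor, had a median of 11.8 TPM in PDPN+ and 12.8 TPM in EpCAM+ libraries and did not pass (log2 difference 0.40, SE 0.24, edgeR adjusted p = 0.167). Of the 7 nuclear complex genes 2 were lower in PDPN+ cells, Snw1 (-1.04, SE 0.14, edgeR adjusted p = 5.46e-06) and the coactivator Maml2 (-1.28, SE 0.22, edgeR adjusted p = 9.58e-05). Rfng, 1 of the Fringe enzymes that add sugar to the receptors, was the 1 of 4 glycosylation genes that passed (1.65, SE 0.39, edgeR adjusted p = 0.00179). Among vehicle libraries alone Maml2 (-0.80, edgeR adjusted p = 0.109) and Rfng (1.26, edgeR adjusted p = 0.166) did not pass. Of 8 receptor turnover genes 2 were higher and 2 lower. Numbl, a relative of the Notch inhibitor Numb, was higher in PDPN+ cells (3.45, SE 0.47, edgeR adjusted p = 7.03e-06), as was the Deltex gene Dtx3 (1.88, SE 0.35, edgeR adjusted p = 0.000197). The Deltex genes Dtx1 (-2.21, SE 0.66, edgeR adjusted p = 0.00929) and Dtx4 (-0.97, SE 0.36, edgeR adjusted p = 0.0299) were lower. Dtx1 was at -2.99 without mouse N53194, -5.03 (adjusted p = 0.00134) among vehicle libraries alone and 0.70 (adjusted p = 0.619) among neratinib libraries alone. Without the 5 libraries that stand apart neither passed, with Dtx1 at -1.78 (adjusted p = 0.0816) and Dtx4 at -0.83 (adjusted p = 0.0587). Dtx4 was at -1.38 (adjusted p = 0.0987) among vehicle and -0.49 (adjusted p = 0.43) among neratinib libraries alone. With the mouse as a block, Dtx1 (-2.96, adjusted p = 0.112) and Dtx4 (-1.24, adjusted p = 0.101) no longer passed, nor did Dtx4 without mouse V53179 (-0.92, adjusted p = 0.0717). Of the 3 other ligands 1 was tested, Dlk2, a non-canonical ligand, at 2.57 (SE 1.06, edgeR adjusted p = 0.0511). It was 1.61 without mouse V53179 and -0.95 without mouse N53194.

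To examine the effect of neratinib, the treated and vehicle libraries of each population were compared in a fit of that population alone. In EpCAM+ cells all 10 members were tested and 0 passed, as was the case for 0 of 17200 genes tested, a background of 0%. At an unadjusted p under 0.05 there were 0 members and 524 genes, and DESeq2 called 0 members and 10 genes. The TPM ranges of the treatments overlapped for 10 of 10 members, and 0.401% of all genes had ranges that did not. The largest log2 fold change by size was Notch4 at -0.56 (SE 0.38, edgeR adjusted p = 0.999), with values of 0.13 to 0.24 TPM under neratinib. Its approximate 95% interval was -1.30 to 0.18. Notch2 had the narrowest interval, from -0.31 to 0.51 around 0.10. Dll1 had 0.28 (interval -0.60 to 1.16), Jag1 0.33 (-0.41 to 1.07), Jag2 0.08 (-0.55 to 0.71), Dll4 -0.09 (-1.54 to 1.36) and Hes1 -0.24 (-0.77 to 0.29). Notch1 had 0.35 (-0.51 to 1.21), Notch3 0.45 (-0.55 to 1.45) and Hey1 -0.35 (-1.90 to 1.20).

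In PDPN+ cells 6 of the 10 members had enough reads to be tested, and Notch4, Jag2, Dll1 and Dll4 did not. None of the 6 passed, and 0 of 14437 genes did, a background of 0%. At an unadjusted p under 0.05 there were 0 members and 331 genes, and DESeq2 called 0 members and 12 genes. The log2 fold changes were 1.32 for Notch1 (SE 1.97), -0.59 for Notch2 (SE 0.80), -0.93 for Notch3 (SE 1.88), 0.42 for Jag1 (SE 1.00), 0.04 for Hes1 (SE 0.66) and -2.01 for Hey1 (SE 2.19), each with an edgeR adjusted p of 1. Single libraries moved them: Notch3 was at -4.04 without N53178, Notch1 at 0.09 without N53180, and Hey1 at -3.55 without N53184 and -0.49 without V53188. Their approximate 95% intervals were wide, from -1.25 to 1.33 for Hes1, the narrowest, to -6.30 to 2.28 for Hey1, so changes of several-fold in either direction were not detectable for most members. The TPM ranges of the treatments overlapped for 10 of 10 members, and 2.81% of all genes had ranges that did not. In 1 fit of all 19 libraries Notch4, Jag2, Dll1 and Dll4 were tested as well, and 111 of 19626 genes passed. Of the members only Jag2 did, at -10.17 (edgeR adjusted p = 0.0457). That value sets 0 reads in 4 neratinib libraries against 4 vehicle libraries of which V53188 holds nearly all reads, and it is no bound.

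**Figure D5:**
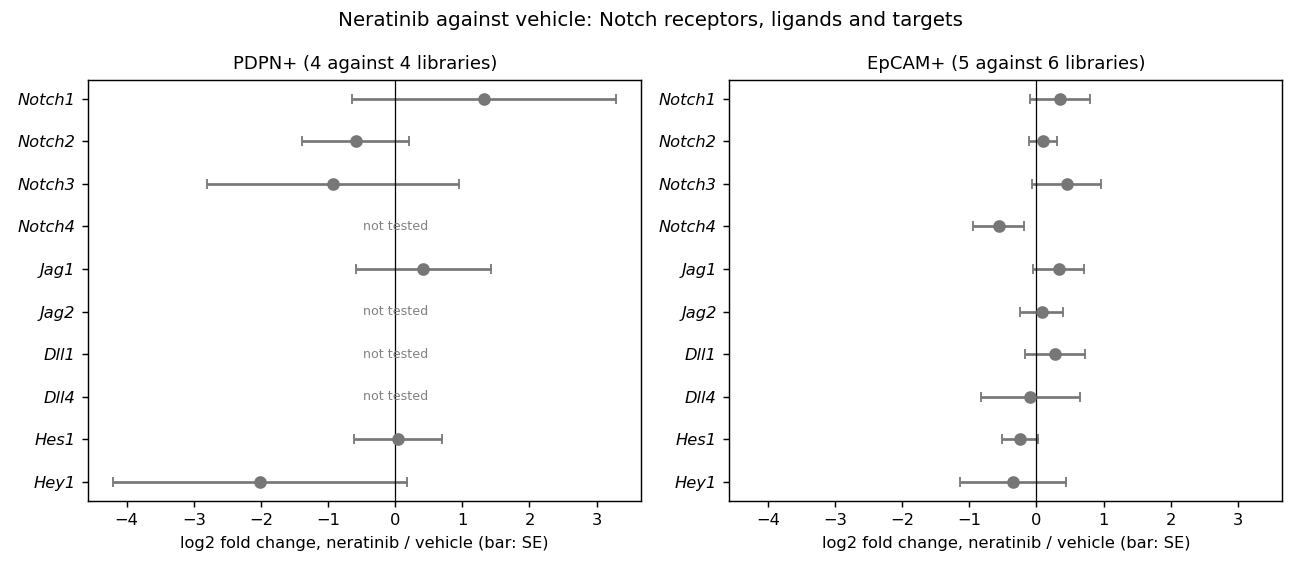
Points are log2 fold changes, neratinib over vehicle, from the edgeR fit of each population, with SE bars; grey points have an adjusted p of at least 0.05, and genes with too few reads in PDPN+ cells are marked as not tested. SE bars are 0.21 to 0.79 in EpCAM+ cells and 0.66 to 2.19 in PDPN+ cells.

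Whether the neratinib effect differed between populations was tested as an interaction in the fit of all 19 libraries, PDPN+ effect minus EpCAM+ effect. Of the 10 members 0 passed in edgeR, and 2 had an unadjusted p under 0.05, beside 13 of 19626 genes that passed (0.0662%) and 2190 with an unadjusted p under 0.05. The 2 were Jag2 (-10.27, SE 2.34, edgeR adjusted p = 0.112) and Dll4 (-3.91, SE 1.80, edgeR adjusted p = 0.422). Jag2 was at -5.99 without mouse V53188, and Dll4 at -5.96 without mouse N53180 and -2.23 without mouse V53185. DESeq2 called Jag2 (adjusted p = 0.000163), and edgeR did without mouse V53175 (adjusted p = 0.0492), with a range of 0.000163 to 0.849 over the 18 alternatives. The number of genes passing was 50, 20, 8, 8, 48 and 33 without mouse V53175, N53178, N53180, N53184, V53188 and N53194. The level of Jag2 in PDPN+ vehicle cells rests on V53188, as given above.

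EpCAM+ libraries V53175, V53176 and N53178 differed from the other 8 EpCAM+ libraries in 6 of the 10 members. They are 2 vehicle libraries and 1 neratinib library, so the split crosses the treatments, and the libraries were set apart by their expression over all genes, these included, so the values are a description with no test. Dll4 stood at 0.584 to 1.16 TPM in these 3 libraries and 3.72 to 11.6 TPM in the other 8. Jag2 stood at 2.29 to 2.95 against 6.62 to 9.45 TPM, Dll1 at 4.04 to 5.33 against 8.79 to 21.6 TPM, Notch1 at 1.04 to 1.34 against 3.61 to 6.37 TPM, and Notch3 at 0.0754 to 0.138 against 0.427 to 0.76 TPM. Hes1 went the other way, at 20.1 to 22.8 against 9.29 to 17.8 TPM. In all, 5 members were lower without overlap and 1 higher, beside 17.6% and 7.78% of 17200 genes.

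The same 3 libraries differed in other markers. Epcam stood at 582 to 897 TPM in them against 114 to 208 TPM in the other 8, and Cdh1, the E-cadherin gene, at 175 to 207 against 569 to 930 TPM. Their 7 islet and neuroendocrine markers summed to 1723 to 4624 TPM against 146 to 749 TPM, led by Ins2 and Sst. Genes lower in the 3 libraries had a median GC content of 53.7% and a median length of 3972 bases, against 49.3% and 2971 bases for all genes tested, taking the longest transcript of each gene. Among the 5 lower members, the leading transcripts of Notch1, Notch3, Jag2, Dll1 and Dll4 have 57.1%, 59.6%, 61.9%, 54.9% and 55.9% GC. That of Hes1, the higher member, has 50.7%. The leading transcripts of Notch4, Notch2, Hey1 and Jag1, whose ranges overlapped, have 61.2%, 53.6%, 52.6% and 48.8%. Members are given by their leading transcript and all genes by their longest, so these GC values are not like for like. The part of these measures in the members' levels was not tested.

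The reads of the members came mainly from the annotated coding transcript. Over the EpCAM+ libraries the coding transcript with the lowest number in the annotation held 99.9% of summed reads for Notch2, 99% for Notch1, 99.7% for Jag1, 97.8% for Dll1, 95.8% for Jag2 and 100% for Dll4. By TPM, which weighs short transcripts more, the Jag2 share was 59.8 to 100% (median 80.1%) and the Dll1 share 74.6 to 94% (median 90.3%). In PDPN+ cells Notch1 differed, with 82.9% of reads on that transcript and 15.6% on a retained intron transcript. By TPM the share of the Notch1 coding transcript was 7.55 to 100% over the 7 PDPN+ libraries with reads. For Notch2 the coding transcript held 95.7% of PDPN+ reads, and 35.2 to 100% by TPM.

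By the closeness of their profile over 19 libraries (root mean square difference of log2 CPM after centring each gene, among 11224 genes with a mean of at least 5 CPM), the nearest genes to Dll1 were Sh2d7 (0.80) and Ush1g (0.81), against a median of 4.22 over all genes. Those nearest to Dll4 were D630003M21Rik (0.87) and Padi1 (0.89), to Jag2 Plekhg6 (1.08) and Gmfg (1.25), and to Jag1 Slc38a6 (0.65) and Zfp84 (0.68). Hes1 lay nearest to Sox4 (0.33), and Notch2 to Rrn3 (0.27) and Rabgef1 (0.31). The nearest genes to Notch1 were Coil (1.00) and Urb1 (1.13), and to Hey1 Ccdc134 (1.71) and Gys1 (1.75), against medians of 3.13 and 2.71. For Notch3 they were Vps9d1 (1.19) and Pigm (1.26), and for Notch4 Atg4d (1.12) and Pias4 (1.14). All these values are a description over the same 19 libraries, which differ by population.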

How the data were processed

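RNA-seq of 19 libraries in 4 groups of sorted cells was analysed. Per the labels' protocols, a kit for small RNA amounts was used for extraction and a low-input kit for library preparation, with PCR cycles set by the RNA amount. Per the submitters' processing notes, quantification was by Salmon 1.9.0, with GRCm39/mm39 as the build, while its transcriptome release was not given in the sources used here. Per transcript, the authors deposited Salmon's estimated counts (expected counts, not normalised), TPM and effective lengths. Strandedness is not stated, so overlapping or antisense genes may share reads.

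Of 147828 transcripts, 137063 had an identifier in GENCODE M21. Gene sums were formed over these, and counts rounded to whole reads. That annotation and the RefSeq promoter table belong to GRCm38, so their coordinates name the genes and no coordinate entered a measurement. The 10765 other transcripts held 1.77 to 8.96% of reads per library. TPM were used for levels, and counts for tests: edgeR 4.0.16 in R 4.3.3 with TMM scaling, filterByExpr and a robust quasi-likelihood F-test, Benjamini-Hochberg adjusted over all genes tested. Neratinib was tested within each population, and the populations and the interaction over 19 libraries. For edgeR, the SE given is the size of the log2 difference divided by the square root of the F statistic. Approximate 95% intervals are the estimate plus or minus 1.96 SE. The multiplier 1.96 takes no account of the small number of libraries, so these intervals are narrower than the F-test would give. P-values rest on the libraries of a group coming from separate mice. PDPN+ and EpCAM+ libraries of 1 number, taken as the same mouse from the label, had deviations from group means that correlated by -0.0958 to 0.0315 (consensus correlation 0.00572), so the block rests on the labels.

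The same results were recomputed with DESeq2 1.42.0, with DESeq2 size factors inside edgeR, without the low-count filter, with transcript length offsets, with limma 3.58.1 on log2(TPM + 1) at a mean TPM of at least 1, and with limma voom and sample weights. Further alternatives were 1 fit of all 19 libraries, a covariate for the digit in the file-name code, the mouse as a block, 1 treatment only, leaving out each library or mouse, and leaving out libraries that stand apart. A covariate for the 3 EpCAM+ libraries and the population fit without 5 libraries were added after seeing the data. The members and lists were chosen with earlier results of these data known. Genes were named by a rule: all 10 members, of each pathway list those that pass (at most the 3 with the smallest p per direction, or the 1 with the smallest p where none passes), the leading markers of each marker list, and the 2 nearest profiles per member. A few genes that the rule names are not reported here. Rbpj and the markers Epcam, Cdh1, Pdpn, Kdr, Plvap, Flt1, Sox17, Esam, Cdh5, Upk3b, Wt1 and Msln were chosen after their values were seen. The fitting was tested on simulated data.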

Additional observations from a re-analysis of the deposited data

Results flagged for a closer look

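The check covered 39 groups of 4 to 6 libraries, 1 for each member and group that was not constant. In 5 of them a library's gap to its nearest neighbour took up most of the range (Dixon's 95% value). Chance alone flags about 1 in 20 for normally distributed values. TPM near 0 are not so distributed, and a group with a single library above 0 is always flagged, so the 5 are not to be read against that rate. Jag2 in PDPN+ vehicle cells was high in V53188 at 2.41 TPM (351 reads), beside 0.00 to 0.07 TPM in the other 3. Notch4 in PDPN+ vehicle cells was high in V53185 at 0.674 TPM (64 reads). Notch3 in PDPN+ neratinib cells was high in N53178 at 1.1 TPM (243 reads), the library with the highest summed level of 5 lymphatic endothelial markers, 909 TPM, against 0.679 to 79.4 TPM in the other 7 PDPN+ libraries. Ccl21a alone made up 895 TPM of that sum, and no other marker of the list was above 12.2 TPM in any PDPN+ library. The part of lymphatic endothelial cells in the Notch3 value was not tested. Jag1 in EpCAM+ neratinib cells was high in N53194 at 36.4 TPM (7523 reads). Dll4 in PDPN+ neratinib cells was high in N53180 at 0.00857 TPM, which is 1 read.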

How the results depend on the processing

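In PDPN+ against EpCAM+ cells, the calls of Jag1, Dll1 and Dll4 held in all 21 alternatives and that of Jag2 in 20. The number of members passing, 8, was 4 with the replicate block over 8 mice, 3 in vehicle libraries only and 4 in neratinib libraries only, and 6 to 8 without 1 mouse. All genes passing, 9673 of 19626, were 7251 of 19078 with the block and 9092 to 10099 without 1 mouse. They were 5421 of 17601 in vehicle and 5838 of 16858 in neratinib libraries only. Notch3 turned to -2.04 under voom and -0.48 with the block, and Dtx1 to 0.70 in neratinib libraries only. Without 1 mouse Notch3 ranged from -1.06 to 0.92 and Dlk2 from -0.95 to 2.81.

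For neratinib in PDPN+ cells, the members passing were 0 and became 1 in the fit of all 19 libraries, and genes passing were 0 and became 111 there, 12 in DESeq2 and 1 in limma on log2(TPM + 1). Without 1 library both were 0 to 0. Notch1 turned to -0.94 under voom, Jag1 to -0.26 under voom and -0.27 without the 2 PDPN+ vehicle libraries that stand apart, and Hes1 to -0.12 on log2(TPM + 1) and -0.06 with the file-name digit. Without 1 library Jag1 ranged from -0.20 to 0.99 and Hes1 from -0.19 to 0.29. In EpCAM+ cells genes passing were 0, and 10 in DESeq2, with members and genes at 0 to 0 without 1 library. Notch2 turned to -0.01 under voom and -0.02 without the 3 libraries that stand apart, Jag2 to -0.08 with those marked by a covariate, and Dll4 to 0.05 on log2(TPM + 1). Without 1 library Notch2 ranged from -0.04 to 0.22, Jag1 from -0.13 to 0.53, Jag2 from -0.04 to 0.27, Dll1 from -0.05 to 0.52 and Dll4 from -0.47 to 0.26. No paired analysis was possible within a population because no mouse number occurs in both treatments.

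For the interaction, members passing were 0, 1 in DESeq2, 0 with the replicate block (limma voom) and 0 to 1 without 1 mouse. Genes passing were 13, 633 in DESeq2, 1 on log2(TPM + 1), 4 under voom, 13 with the block and 8 to 50 without 1 mouse. Notch1 turned to -0.03 with length offsets, -0.38 on log2(TPM + 1), -1.31 under voom and -0.43 with the block, and Jag1 to -0.01 without the low-count filter, -0.05 on log2(TPM + 1) and -0.34 under voom. Without 1 mouse Notch1 ranged from -0.16 to 1.65, Notch4 from -2.13 to 3.90, Jag1 from -0.62 to 0.75, Dll1 from -2.49 to 0.01 and Hes1 from -0.0012 to 0.45. The cause of these changes was not tested. Members at 0 to 3 reads in PDPN+ libraries limit what depth can show there.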
